A study of Mus musculus with 30 samples.

Results

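The genes of the mitochondrial genome were followed in mouse tail fibroblasts exposed for 48 h either to DMSO or to 1 of 8 compounds. The members were all rows of the deposited table whose Ensembl gene identifier maps to chromosome M in GENCODE M21, and they numbered 13 of 29861 genes. All 13 encode proteins: 7 subunits of complex I (NADH dehydrogenase), cytochrome b of complex III, 3 subunits of complex IV (cytochrome c oxidase) and 2 subunits of complex V (ATP synthase). Of the 37 annotated mitochondrial genes, the 2 ribosomal RNAs and 22 transfer RNAs have no row used here. mt-Nd6 is the 1 member on the minus strand of the reference sequence, and the other 12 lie on the plus strand. All 13 passed the filter on low values.

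Mitochondrial DNA is a small circle present in many copies per cell, and both of its strands are transcribed into long polycistronic RNAs by a dedicated polymerase, POLRMT. The transfer RNAs that lie between most coding regions are cut out, which releases the messenger and ribosomal RNAs, and each mRNA then reaches a level set by its own turnover. The encoded proteins are the hydrophobic cores of the respiratory chain and of ATP synthase, which assemble with many subunits made from nuclear genes.

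The cells were the line CCG-HTA-1 at passage 4, grown from tails of UMHet3 mice, a genetically heterogeneous stock, and kept in high-glucose medium without pyruvate and with 10% fetal calf serum at 37 °C and 10% CO2. Compounds were added 24 h after plating and RNA was taken 48 h later. The donors were 5 to 8 weeks old, except that Dihydrorotenone replicate 1 is labelled 8 to 11 weeks. Antimycin A blocks the ubiquinone reduction site of complex III. Dihydrorotenone, a reduced form of rotenone, blocks complex I, and Diphenyleneiodonium Cl blocks flavoenzymes, complex I among them. Cardamonin is a plant chalcone, Clofilium tosylate blocks potassium channels, Podofilox binds tubulin, and the compounds listed as BerberineA and AEG 3482 are described no further in the labels. Each compound had 3 libraries and DMSO had 6 by the sample labels, while the series text gives 5 controls. Doses are not in the labels, so the compounds are compared as they were used. Nothing says that replicates came from separate cultures, so p-values measure the spread between these libraries. The library numbers run consecutively within each group, so a batch of libraries and a compound cannot be told apart.

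All libraries carried fibroblast RNA: 12 of 12 fibroblast markers reached 1 TPM in every group, with a summed level of 6241 to 17639.6 TPM per library. In DMSO the sum was 14746 to 17639.6 TPM. All libraries of Cardamonin (6241 to 8149.5 TPM), Antimycin A (11466 to 12705 TPM), Clofilium tosylate (12974 to 13831 TPM), Podofilox (13638 to 14508 TPM) and Diphenyleneiodonium Cl (13997 to 14740.3 TPM) lay below that. TPM is a relative abundance that sums to 1000000 over all transcripts of a library. It corrects for transcript length so that levels of different genes can be set side by side, within limits given below. Of the other markers, 6 keratinocyte genes summed to 1.05 to 2.43 TPM, 5 endothelial genes to 2.23 to 9.82 TPM and 7 muscle and Schwann cell genes to 2.51 to 5.85 TPM. The 7 leukocyte markers summed to 154 to 209.9 TPM in DMSO and lower in all 8 compounds, from 53.0 to 67.3 TPM in Antimycin A to 109.7 to 129 TPM in Cardamonin. Of these 7 genes 4 reached 1 TPM in DMSO and in Antimycin A. The part of these marker shifts in the results was not tested. Depth is unknown for a TPM table.

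In GRCm38 coordinates the complex I genes on the plus strand are mt-Nd1 (ENSMUSG00000064341, chrM:2751-3707), mt-Nd2 (ENSMUSG00000064345, chrM:3914-4951), mt-Nd3 (ENSMUSG00000064360, chrM:9459-9806), mt-Nd4l (ENSMUSG00000065947, chrM:9877-10173), mt-Nd4 (ENSMUSG00000064363, chrM:10167-11544) and mt-Nd5 (ENSMUSG00000064367, chrM:11742-13565). mt-Nd6 (ENSMUSG00000064368, chrM:13552-14070) lies on the minus strand. Cytochrome b, the complex III subunit, comes from mt-Cytb (ENSMUSG00000064370, chrM:14145-15288). The cytochrome c oxidase genes are mt-Co1 (ENSMUSG00000064351, chrM:5328-6872), mt-Co2 (ENSMUSG00000064354, chrM:7013-7696) and mt-Co3 (ENSMUSG00000064358, chrM:8607-9390), and the ATP synthase genes are mt-Atp8 (ENSMUSG00000064356, chrM:7766-7969) and mt-Atp6 (ENSMUSG00000064357, chrM:7927-8607). Each is a single uninterrupted exon.

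Mitochondrial genes are packed with little space between them, and 3 junctions bear on how reads were assigned. The letters are from the GENCODE M21 transcripts on GRCm38, plus strand, 5′ to 3′, with the bases shared by both coding regions in capitals. mt-Atp8 and mt-Atp6 share 43 bases of 1 mRNA, mt-Nd4l and mt-Nd4 share 7 bases of another, and mt-Nd5 and mt-Nd6 meet end to end on opposite strands with 14 bases in common.
mt-Atp8/mt-Atp6 at chrM:7915-7981: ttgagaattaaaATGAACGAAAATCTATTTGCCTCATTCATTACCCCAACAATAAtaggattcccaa
mt-Nd4l/mt-Nd4 at chrM:10146-10194: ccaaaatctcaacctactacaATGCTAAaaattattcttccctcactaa
mt-Nd5/mt-Nd6 at chrM:13534-13583: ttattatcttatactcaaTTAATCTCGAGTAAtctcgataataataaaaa
Whether counting used strand is not stated. Reads of mt-Nd6 therefore cannot be told from reads of the opposite strand across the same region.

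A nuclear copy of part of the mitochondrial genome also takes reads. On the minus strand of chromosome 1, between positions 24611535 and 24616197 (GRCm38), lie 7 unprocessed pseudogenes that share 97.2% to 100% of their 31-base words with a mitochondrial gene. Over all libraries Gm29216 (copy of the end of mt-Co1) averaged 4149 TPM, Gm10925 (mt-Atp6) 3769 TPM and Gm28661 (mt-Co2) 3537 TPM. Gm28438 (mt-Nd3) averaged 1289.9 TPM and Gm28437 (mt-Co3) 899.9 TPM. Of the remaining copies, Gm10222 (mt-Nd4l) was listed at 0 in every library, and Gm28439 (the start of mt-Nd4) did not reach 1 TPM in any. The first lines below show the start of mt-Co2 and of Gm28661, which are identical over all 681 bases of the copy. The last lines show mt-Co1 and Gm29216 where they differ, with the differing bases in capitals; both are written in the sense of the gene.
mt-Co2 at chrM:7013-7072, plus strand: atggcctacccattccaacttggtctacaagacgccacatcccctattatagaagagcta
Gm28661 at chr1:24615506-24615565, minus strand: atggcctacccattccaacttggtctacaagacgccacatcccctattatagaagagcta
mt-Co1 at chrM:6381-6440, plus strand: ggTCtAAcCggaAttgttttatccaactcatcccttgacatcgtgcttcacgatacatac
Gm29216 at chr1:24616138-24616197, minus strand: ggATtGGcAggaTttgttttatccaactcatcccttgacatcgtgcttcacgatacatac
Gm29216 matched the last 492 bases of mt-Co1 but for 6 substitutions (T1056A, C1057T, A1059G, A1060G, C1062A and A1066T, counted from the first base of the mt-Co1 coding region, mitochondrial base first). Gm28438 differed from mt-Nd3 by T3C alone, and the other 5 copies were identical to their gene over their whole length. Reads that fit both copies were split by the authors' estimate, so levels of mt-Co1, mt-Co2, mt-Atp6, mt-Co3 and mt-Nd3, and those of the copies themselves, are uncertain. Changes of these 5 genes against DMSO are therefore also plotted after adding the copy's TPM in proportion to transcript length. This alternative was chosen after seeing the data. The text prints these values for some comparisons only, and a change given without one is as deposited.

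The values assigned to the copies differed between groups. Where a copy is identical to its gene they are a share of reads that fit both, so a change in them cannot be assigned to the copy. Gm10925 ran from 3168 to 4976 TPM with a median of 4404 in DMSO, and stood at 1391, 1576 and 1383 TPM in AEG 3482 (log2 change -1.55 ± 0.14 SE, limma adjusted p = 6.14e-10). It was 6928, 5382 and 6094 TPM in BerberineA (0.53 ± 0.14 SE, limma adjusted p = 0.00853), above every DMSO library. Gm29216 was assigned 7247, 5886 and 6139.6 TPM in BerberineA against 3404 to 4401 TPM with a median of 4201 (0.67 ± 0.08 SE, limma adjusted p = 2.08e-06). In Cardamonin it was 2652, 2809 and 2507 TPM (-0.60 ± 0.08 SE, limma adjusted p = 7.10e-07). Gm28437 spread widely within groups, from 665 to 2379 TPM among DMSO libraries alone. The plot of the copies by library shows these differences and the scatter within groups.

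**Figure D1:**
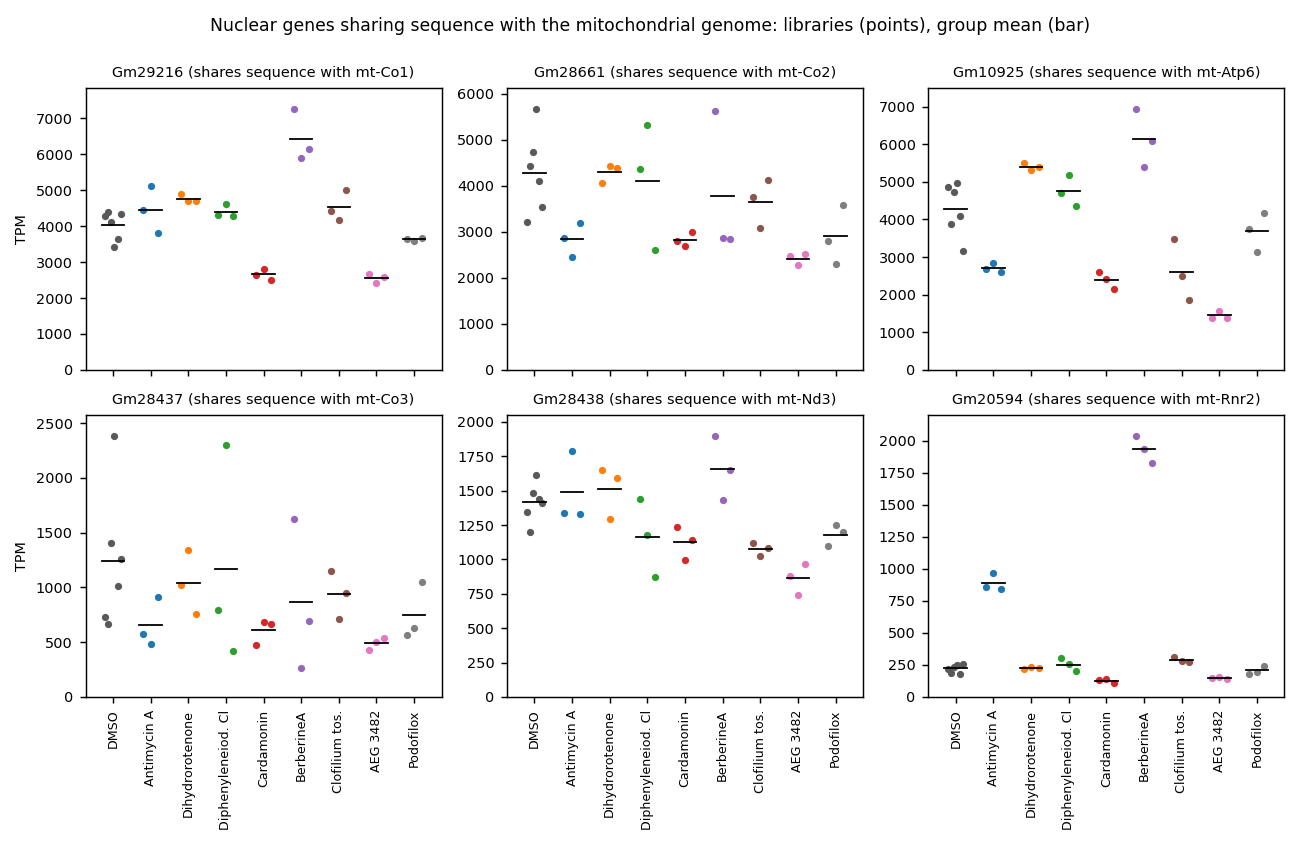
Levels of 5 chromosome 1 copies and of Gm20594 on chromosome 6, which shares sequence with the mitochondrial mt-Rnr2 RNA; the vertical axis is TPM, the horizontal axis the 9 groups, points are libraries and bars are group means. Gm10925 lies between 1383 and 1576 TPM in AEG 3482, below all 6 DMSO libraries, and Gm28437 scatters within DMSO, Diphenyleneiodonium Cl and BerberineA.

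In DMSO the 13 mRNAs together took 4.75 ± 0.292% of 1000000 TPM (SD, n = 6), and their levels spanned 18.5-fold. The 3 cytochrome c oxidase mRNAs led. mt-Co1, whose product holds the catalytic haem and copper centre, averaged 10120.2 ± 684 TPM (SD, n = 6). mt-Co3, a core subunit without redox centres, averaged 7737 ± 404 TPM (SD, n = 6). mt-Co2, which takes electrons from cytochrome c, averaged 4784 ± 669.8 TPM (SD, n = 6), and the ranges of these 3 did not overlap as deposited. A middle group held mt-Nd4l at 3933 ± 770.0 TPM (SD, n = 6), mt-Cytb at 3921 ± 291 TPM (SD, n = 6), mt-Atp6 at 3452 ± 276 TPM (SD, n = 6), mt-Nd1 at 3347 ± 181 TPM (SD, n = 6) and mt-Nd4 at 3142 ± 354 TPM (SD, n = 6), each overlapping its neighbour in rank. The highest of this group, mt-Nd4l (2856 to 4955 TPM), also overlapped mt-Co2 (4026 to 6030.3 TPM). So did mt-Cytb, with up to 4273 TPM. As deposited, mt-Atp6, mt-Nd1 and mt-Nd4 lay below every mt-Co2 library, and the whole group lay below every mt-Co1 and mt-Co3 library. mt-Nd6 of the other strand stood at 2295 ± 233 TPM (SD, n = 6), below every mt-Nd4 library. mt-Nd2 and mt-Nd5 averaged 1777 and 1757 TPM. The 2 lowest as deposited were mt-Atp8 at 702 ± 137 TPM (SD, n = 6) and mt-Nd3 at 546 ± 104 TPM (SD, n = 6). mt-Atp8 and mt-Atp6 lie on 1 mRNA yet averaged 702 and 3452 TPM, so this order need not follow the amounts of mRNA. The order also depends on how reads were split with the chromosome 1 copies. With the copies added by length mt-Nd3 averaged 1949 ± 137 TPM (SD, n = 6), above mt-Nd2 and mt-Nd5, and mt-Atp6 7715 ± 796 TPM (SD, n = 6), above the middle group. mt-Co2 then averaged 9050.3 ± 486 TPM (SD, n = 6) and mt-Co3 8978 ± 415 TPM (SD, n = 6), with overlapping ranges, and mt-Co1 11405 ± 615 TPM (SD, n = 6). The spread of the deposited values among the 6 DMSO libraries ran from a coefficient of variation of 5.22% for mt-Co3 to 19.6% for mt-Nd4l.

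The summed share was 3.51 ± 0.143% in Antimycin A, 4.00 ± 0.132% in AEG 3482, 4.34 ± 0.0694% in Podofilox and 4.37 ± 0.154% in Cardamonin. It was 5.27 ± 0.169% in Diphenyleneiodonium Cl, 5.33 ± 0.394% in BerberineA, 5.42 ± 0.591% in Clofilium tosylate and 5.73 ± 0.498% in Dihydrorotenone (SD, n = 3 each). The DMSO libraries ran from 4.33% to 5.04%, and all 3 libraries of Antimycin A (3.39% to 3.67%) and of AEG 3482 (3.85% to 4.10%) lay below them. All 3 libraries of Dihydrorotenone (5.28% to 6.26%), Diphenyleneiodonium Cl (5.08% to 5.41%) and BerberineA (5.08% to 5.79%) lay above them, and the other 3 compounds overlapped DMSO. With the nuclear copies included the share was 6.28 ± 0.423% in DMSO, 4.72 ± 0.190% in Antimycin A, 4.78 ± 0.154% in AEG 3482 and 7.43 ± 0.501% in Dihydrorotenone. The DMSO libraries then ran from 5.70% to 6.77%, and these 3 compounds kept their side of that range. Diphenyleneiodonium Cl (6.57% to 6.97%) and BerberineA (6.72% to 8.12%) now overlapped DMSO. Every Cardamonin library (5.17% to 5.49%) now lay below it, so these 3 positions depend on how the copies are treated. In these bulk samples fewer mitochondria-rich cells and less mitochondrial RNA per cell cannot be told apart. All 13 mRNAs differed among the 8 compounds by limma's F test at an adjusted p under 0.05, as did 84.9% of the 13644 genes tested. Group means spanned from 1.43-fold for mt-Nd2 to 2.69-fold for mt-Cytb. Of the deposited values, the lowest group mean was that of Antimycin A for 8 genes, of AEG 3482 for 3 and of Podofilox for 2. The highest was that of BerberineA for 6, Dihydrorotenone for 5 and Clofilium tosylate for 2.

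**Figure D2:**
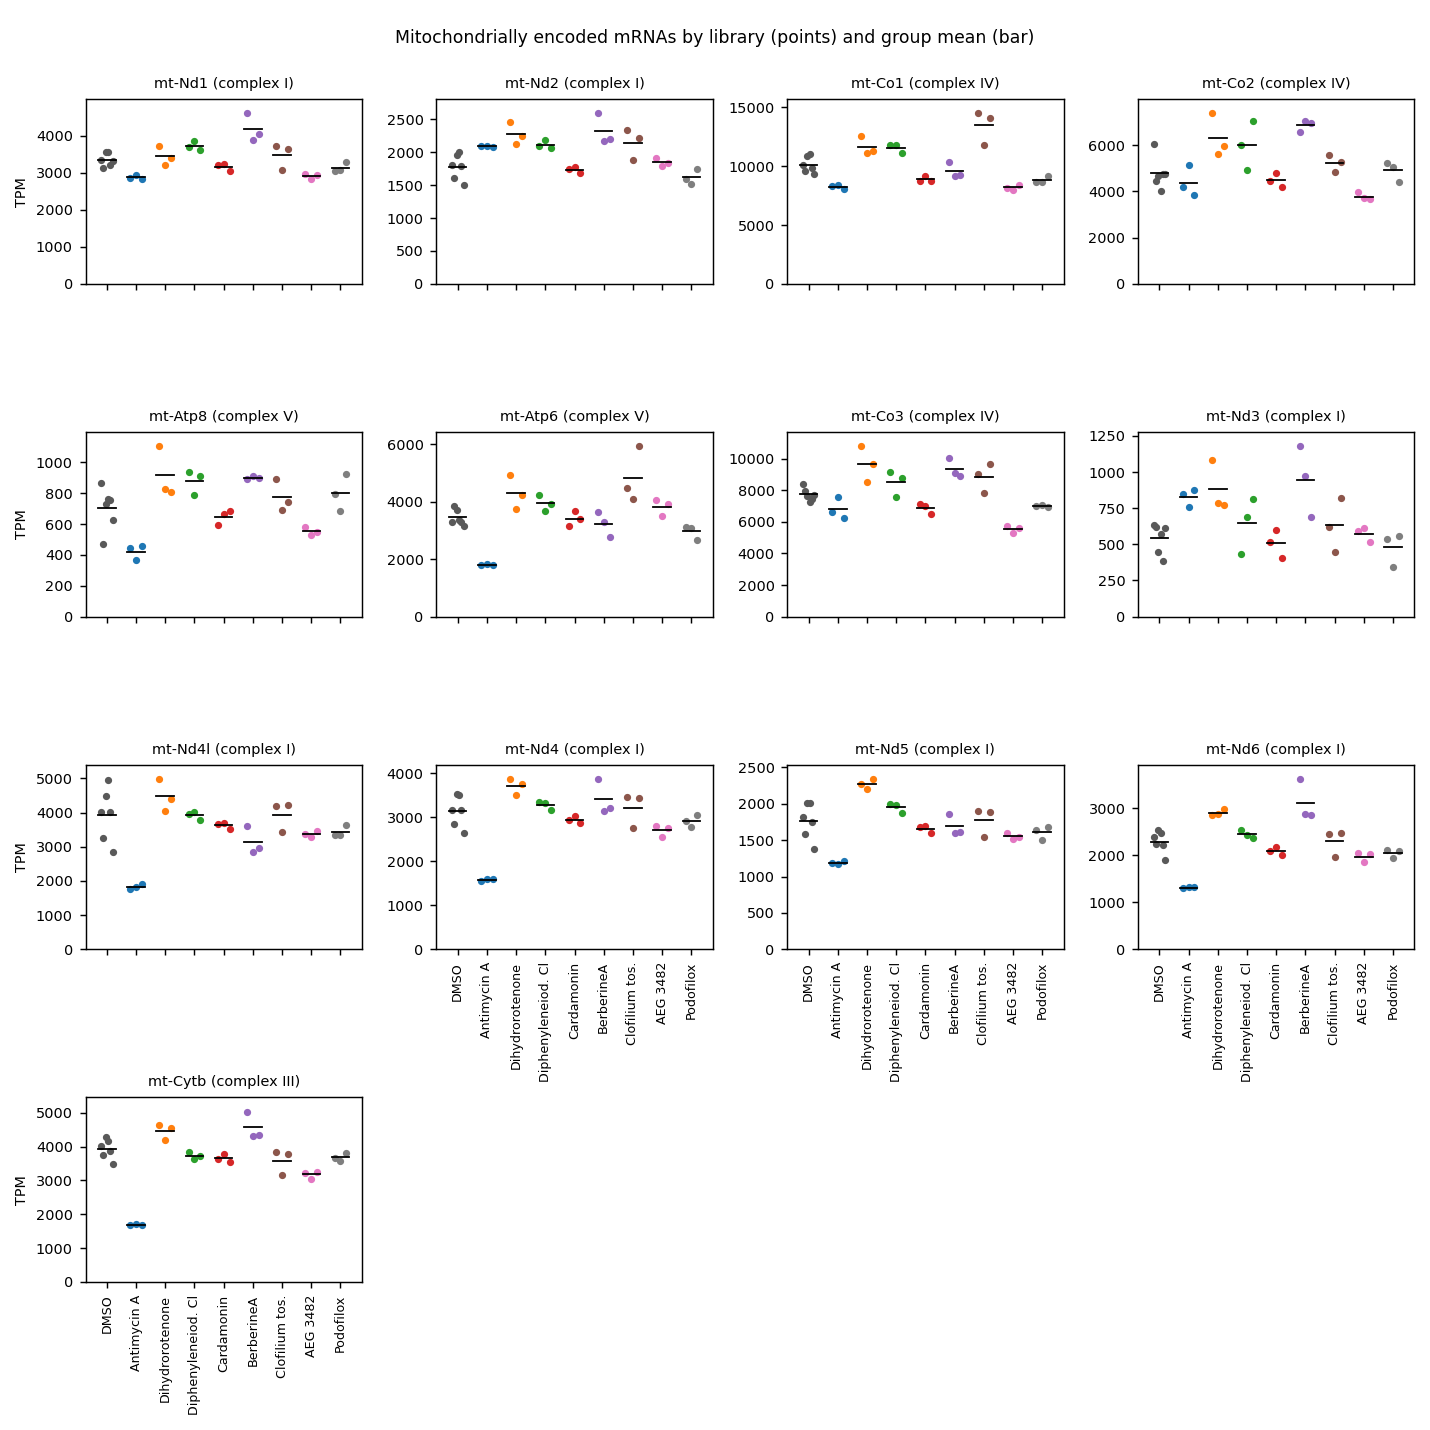
Level of each of the 13 mitochondrial mRNAs, in genome order; the vertical axis is TPM from 0, the horizontal axis the 9 groups, points are libraries and bars are group means. For mt-Cytb the 3 Antimycin A libraries sit between 1685 and 1719 TPM, below every other library, while for mt-Nd2 they lie above every DMSO library.

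Counting genes whose 3 libraries all lay outside the range of the 6 DMSO libraries gives a view that needs no model. Antimycin A had 2 of the 13 above and 9 below, beside 18% and 13% of all genes. Dihydrorotenone had 6 above and 0 below (4.99% and 9.87% of all genes), and BerberineA 8 and 0 (10.5% and 8.56%). Diphenyleneiodonium Cl had 3 and 0 (13.3% and 11.3%), and Clofilium tosylate 2 and 0 (9.56% and 11.2%). AEG 3482 had 0 above and 5 below (36.1% and 22.8%). Cardamonin had 0 and 2 (32.9% and 28.7%), and Podofilox 0 and 3 (21.7% and 16.7%). No compound had members on both sides except Antimycin A.

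Antimycin A, the complex III inhibitor, lowered 9 of the 13 mRNAs and raised 2, against 15.5% of all genes lower and 21.8% higher by the same limma test. The median log2 fold change of the 13 was -0.55, beside 0.03 over all genes. mt-Cytb, which encodes the complex III subunit that binds Antimycin A, was at 1685, 1719 and 1690.3 TPM, against 3473 to 4273 TPM with a median of 3941 in DMSO. The groups were far apart, and the log2 change, -1.20 ± 0.06 SE, limma adjusted p = 2.06e-13, was the largest fall among the 13. mt-Nd4l fell by 1.08 and mt-Nd4, a proton-pumping subunit made from the same mRNA, by 0.98. mt-Nd4 stood at 1561, 1591 and 1591 TPM, and the DMSO libraries at 2638 to 3527 TPM with a median of 3163. mt-Nd6 of the other strand went to 1300.3, 1319 and 1322 TPM from 1898 to 2551 TPM with a median of 2312, a change of -0.80 ± 0.08 SE, limma adjusted p = 1.92e-08. Of the ATP synthase mRNA, mt-Atp6, the proton channel subunit, stood at 1813, 1848 and 1781 TPM against 3151 to 3869 TPM with a median of 3343 (-0.92 ± 0.10 SE, limma adjusted p = 7.73e-08). mt-Atp8 fell by 0.71 and mt-Nd5, another proton-pumping subunit, by 0.55. For all 7 of these genes every Antimycin A library lay below every DMSO library.

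Upstream of mt-Nd4l, the genes other than the ATP synthase pair had smaller or opposite changes under Antimycin A. mt-Nd2 stood at 2098, 2096 and 2073 TPM, just above the DMSO range of 1504 to 2008 TPM with a median of 1793 (0.24 ± 0.08 SE, limma adjusted p = 0.0163). mt-Nd3 stood at 851, 759.8 and 873 TPM against 385 to 636 TPM with a median of 592 (0.62 ± 0.21 SE, limma adjusted p = 0.0242). With its chromosome 1 copy added its change was 0.24 (adjusted p = 0.0376), and no Antimycin A library of mt-Nd3 as deposited lay inside the DMSO range. mt-Nd1 fell by 0.22 and mt-Co1 by 0.29. mt-Co3, at -0.19 ± 0.07 SE, and mt-Co2, at -0.13 ± 0.11 SE, did not pass as deposited, and both passed with their copies added, at -0.27 and -0.33. By complex, 5 of 7 complex I genes fell and 2 rose, the 1 gene of complex III fell, 1 of 3 in complex IV fell and both of complex V fell. The 5 genes from mt-Nd4l to mt-Cytb all fell, by 0.55 to 1.20, a division of the genome made after its values were seen. Across the 12 plus-strand genes, the change and the start position along the genome had a Pearson r of -0.52 and a Spearman rho of -0.57, a description over genes that share the same libraries. The same 2 values were -0.58 and -0.60 for Diphenyleneiodonium Cl, -0.54 and -0.63 for Clofilium tosylate, -0.19 and -0.34 for BerberineA, -0.07 and -0.17 for Cardamonin and 0.19 and 0.02 for Dihydrorotenone. They were -0.15 and 0.03 for AEG 3482 and -0.04 and 0.01 for Podofilox. As deposited, the correlation was at least as strong for Diphenyleneiodonium Cl and Clofilium tosylate as for Antimycin A. With the copies added by length the 2 values were -0.64 and -0.69 for Antimycin A. Diphenyleneiodonium Cl then stood at -0.57 and -0.59, and Clofilium tosylate at -0.59 and -0.58. A correlation does not measure the size of changes. From mt-Nd4l to mt-Cytb the changes ran from -0.07 to 0.16 in Diphenyleneiodonium Cl and from -0.13 to 0.03 in Clofilium tosylate. In each, 0 of these 5 genes passed. Of all genes, 14% and 10.9% were higher and 11.7% and 12.5% lower in these 2 compounds. This stretch was drawn from the Antimycin A values, so its 5 of 5 in Antimycin A cannot set the compounds apart. The calls lost with 1 library left out were mt-Nd2 without Antimycin A replicate 1, and mt-Nd3 without Antimycin A replicate 1 or 3 or DMSO replicate 5. Without Antimycin A replicate 1 neither rise passed, and mt-Co3 passed as a fall without Antimycin A replicate 2 or DMSO replicate 4.

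**Figure D3:**
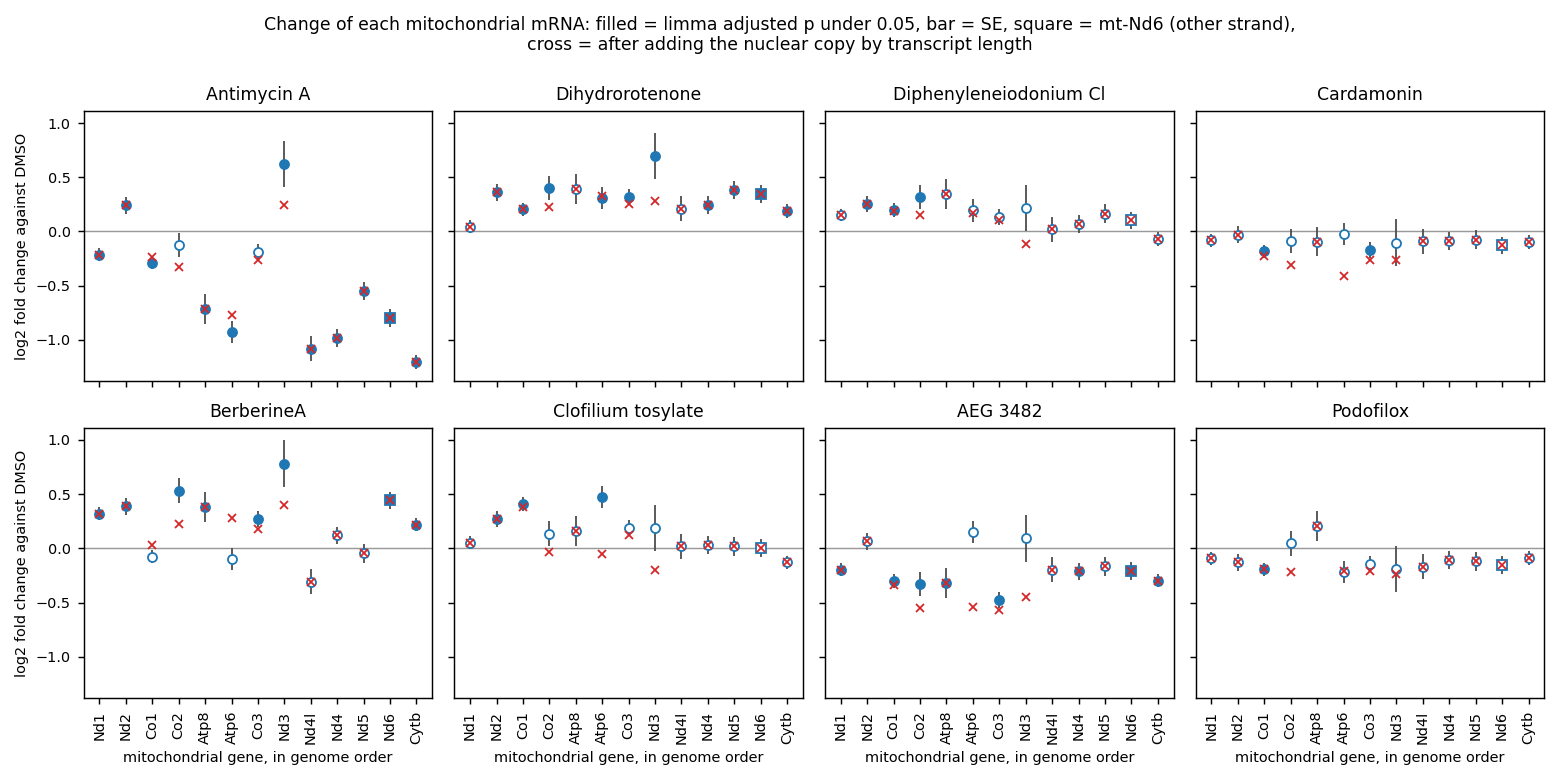
Log2 fold change against DMSO (vertical axis) of the 13 genes in genome order (horizontal axis), 1 panel per compound; circles are plus-strand genes and the square is mt-Nd6, filled where limma's adjusted p was under 0.05, bars are SE, and crosses are the values with the nuclear copies added by length. Antimycin A values run from -1.20 for mt-Cytb to 0.62 for mt-Nd3, and crosses lie away from circles mainly for mt-Co2, mt-Atp6 and mt-Nd3.

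Dihydrorotenone, the complex I inhibitor, raised 10 of the 13 mRNAs and lowered 0, where 4.95% of all genes rose and 9.43% fell. At an unadjusted p under 0.05 the count of falls was also 0. The split over all genes was 676 higher and 1287 lower as deposited, with 974 genes higher and 948 lower under median-ratio scaling. The median change was 0.32, beside -0.03 over all genes. mt-Nd5 stood at 2272, 2198 and 2342 TPM against 1374 to 2006 TPM with a median of 1788 in DMSO (0.38 ± 0.09 SE, limma adjusted p = 0.00351). mt-Nd6 stood at 2852, 2882 and 2987 TPM against 1898 to 2551 TPM with a median of 2312 (0.35 ± 0.08 SE, limma adjusted p = 0.00468), with no overlap. mt-Nd2 stood at 2453, 2125 and 2244 TPM against 1504 to 2008 TPM with a median of 1793 (0.36 ± 0.08 SE, limma adjusted p = 0.00247), again all above DMSO. These 3 are core subunits of complex I, the enzyme the compound blocks, but the rises were not confined to that complex. By complex, 5 of 7 complex I genes rose, as did the 1 gene of complex III, 3 of 3 in complex IV and 1 of 2 in complex V. mt-Nd3 had the largest change, 0.69 ± 0.21 SE, limma adjusted p = 0.0295, which was 0.28 with its copy added. All 3 cytochrome c oxidase genes rose, by 0.40 for mt-Co2, 0.32 for mt-Co3 and 0.20 for mt-Co1. mt-Atp6 rose by 0.31, mt-Nd4 by 0.24 and mt-Cytb by 0.19. mt-Atp8 at 0.39 ± 0.14 SE, mt-Nd4l at 0.21 ± 0.12 SE and mt-Nd1 at 0.04 ± 0.06 SE did not pass. Without Dihydrorotenone replicate 1, the library with the other donor age, 3 genes passed (mt-Nd2, mt-Nd5 and mt-Nd6), and without DMSO replicate 5 the count was 6. The other calls lost with 1 library left out were mt-Atp6 without Dihydrorotenone replicate 3 or DMSO replicate 1, 4, 5 or 6, mt-Nd3 without Dihydrorotenone replicate 2 or DMSO replicate 3 or 5, mt-Nd4 without Dihydrorotenone replicate 2 or 3 or DMSO replicate 1, 2, 5 or 6, and mt-Cytb without Dihydrorotenone replicate 3 or DMSO replicate 1, 2, 5 or 6. mt-Atp8 passed without DMSO replicate 1 or 4, and with Dihydrorotenone and DMSO fitted alone 4 genes passed.

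Diphenyleneiodonium Cl, the flavoenzyme inhibitor, raised 3 genes and lowered 0, against 14% and 11.7% of all genes, and at an unadjusted p under 0.05 it raised 5 and lowered 0. mt-Co1 stood at 11840.2, 11774 and 11144 TPM against 9344 to 11019.5 TPM with a median of 9969 in DMSO (0.20 ± 0.06 SE, limma adjusted p = 0.0174). mt-Nd2 stood at 2087, 2178 and 2058 TPM against 1504 to 2008 TPM with a median of 1793 (0.25 ± 0.08 SE, limma adjusted p = 0.0174). Every Diphenyleneiodonium Cl library of these 2 genes lay above every DMSO library. mt-Co2 rose by 0.32, with 1 of its 3 libraries above DMSO replicate 1, and with its copy added the change was 0.16 (adjusted p = 0.0823). The calls lost with 1 library left out were mt-Nd2 without Diphenyleneiodonium Cl replicate 2, mt-Co1 without Diphenyleneiodonium Cl replicate 1 or 2, and mt-Co2 without Diphenyleneiodonium Cl replicate 1 or 3 or DMSO replicate 2, 3, 4 or 5. mt-Nd1 passed as a rise without DMSO replicate 3 or 4 and mt-Atp8 without DMSO replicate 1, and with Diphenyleneiodonium Cl and DMSO fitted alone 0 genes passed.

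The inhibitors of the chain were then set against each other directly. Antimycin A was lower than Dihydrorotenone for 11 of the 13 genes, where 3.91% of all genes were lower and 11.6% higher. The split over all genes was 1581 higher and 533 lower as deposited, with 970 genes higher and 893 lower under median-ratio scaling. The differences ran from -0.26 for mt-Nd1, which turned to 0.054 under quantile normalization, to -1.39 for mt-Cytb, and mt-Nd2 (-0.12 ± 0.09 SE) and mt-Nd3 (-0.07 ± 0.25 SE) did not pass. Antimycin A was lower than Diphenyleneiodonium Cl for 11 genes as well, against 2.39% of all genes lower and 3.65% higher, again with mt-Nd2 (-0.01 ± 0.09 SE) and mt-Nd3 (0.41 ± 0.25 SE) outside. There the split over all genes was 498 higher and 326 lower as deposited, with 395 genes higher and 434 lower under median-ratio scaling. mt-Atp6 differed by -1.12 and mt-Cytb by -1.13 in that comparison. With its copy added mt-Nd3 was higher in Antimycin A than in Diphenyleneiodonium Cl, by 0.35 (adjusted p = 0.0409). Dihydrorotenone and Diphenyleneiodonium Cl differed in 1 gene, mt-Cytb, by 0.26 ± 0.07 SE, limma adjusted p = 0.0478, with 0.572% of all genes higher in Dihydrorotenone and 3.11% lower. The split there was 78 higher and 424 lower as deposited, with 127 genes higher and 262 lower under median-ratio scaling. Against Dihydrorotenone, the calls of mt-Co2 and mt-Nd1 were lost without Dihydrorotenone replicate 1, and those of mt-Co2 and mt-Co3 against Diphenyleneiodonium Cl without replicate 1 or 3 of either compound. The mt-Cytb call was lost without Dihydrorotenone replicate 1 or 3 and without each Diphenyleneiodonium Cl library in turn.

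BerberineA raised 8 of the 13 mRNAs and lowered 0, against 12.6% and 9.16% of all genes. At an unadjusted p under 0.05 the falls numbered 1, mt-Nd4l. The split over all genes was 1717 higher and 1250 lower as deposited, with 1480 genes higher and 1621 lower under median-ratio scaling. mt-Nd1 stood at 4599.5, 3886 and 4039.9 TPM against 3115 to 3558 TPM with a median of 3322 in DMSO (0.32 ± 0.06 SE, limma adjusted p = 0.000314), and mt-Nd2 at 2588, 2169 and 2200.2 TPM (0.39 ± 0.08 SE, limma adjusted p = 0.000606). mt-Nd6 of the other strand stood at 3632, 2885 and 2854 TPM against 1898 to 2551 TPM with a median of 2312 (0.44 ± 0.08 SE, limma adjusted p = 0.000237). mt-Co2 stood at 6583, 7058 and 6976 TPM against 4026 to 6030.3 TPM with a median of 4709 (0.53 ± 0.11 SE, limma adjusted p = 0.000954). For these 4 genes every BerberineA library lay above every DMSO library as deposited. The mt-Co2 copy Gm28661 averaged 3776.5 TPM in BerberineA and 4285 TPM in DMSO, so the size of the mt-Co2 rise depends on how reads were split. mt-Cytb rose by 0.22, mt-Co3 by 0.27, mt-Atp8 by 0.38 and mt-Nd3 by 0.78 as deposited. The mt-Nd3 copy Gm28438 averaged 1659 TPM in BerberineA and 1415 TPM in DMSO (0.23 ± 0.13 SE, limma adjusted p = 0.235). The size of the mt-Nd3 rise therefore also depends on how reads were split. mt-Nd5, next to mt-Nd6 on the other strand, was at 1862, 1603 and 1608 TPM, inside the DMSO range (-0.05 ± 0.09 SE). mt-Nd4l was at -0.31 ± 0.12 SE and did not pass (adjusted p = 0.0568), and mt-Nd4 was at 0.12 ± 0.08 SE. With copies added mt-Atp6 turned from -0.10 to 0.28 and passed (adjusted p = 0.0115), while mt-Co3 at 0.18 no longer passed. Without BerberineA replicate 1, the highest of its group for 11 of the 13 genes, 4 rises passed and mt-Nd4l passed as a fall. The calls lost with 1 library left out were mt-Atp8 without BerberineA replicate 1, 2 or 3 or DMSO replicate 2, 3 or 6, mt-Co3 without BerberineA replicate 1, mt-Nd3 without BerberineA replicate 1, and mt-Cytb without BerberineA replicate 1, and mt-Nd4l passed as a fall without DMSO replicate 2 or 6 too.

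Clofilium tosylate, the potassium channel blocker, raised 3 genes and lowered 0, against 10.9% and 12.5% of all genes. At an unadjusted p under 0.05 it raised 4 and lowered 1. mt-Co1 stood at 14489.7, 11784 and 14137 TPM against 9344 to 11019.5 TPM with a median of 9969 in DMSO (0.41 ± 0.06 SE, limma adjusted p = 1.68e-05), the highest group mean of mt-Co1. mt-Nd2 rose by 0.27, with 2 of 3 libraries above the DMSO range. mt-Atp6 stood at 4471, 4084 and 5937 TPM against 3151 to 3869 TPM with a median of 3343 (0.47 ± 0.10 SE, limma adjusted p = 0.00129), all above DMSO. Its copy Gm10925 was at 3488, 2485 and 1855 TPM, and with the copy added the mt-Atp6 change was -0.05 (adjusted p = 0.692), so the direction was lost. Set against Antimycin A, Clofilium tosylate was higher for 10 of the 13 genes, where 1.36% of all genes were higher and 3.85% lower, and by 1.39 for mt-Atp6, 1.10 for mt-Nd4l and 1.07 for mt-Cytb. The split over all genes was 186 higher and 525 lower as deposited, with 286 genes higher and 346 lower under median-ratio scaling. In that comparison the mt-Nd1 call was lost without replicate 1 or 3 of either compound, and that of mt-Co3 without Antimycin A replicate 1 or 3 or Clofilium tosylate replicate 3. The calls lost with 1 library left out were mt-Nd2 without Clofilium tosylate replicate 1 or 3, and mt-Cytb passed as a fall without DMSO replicate 6. mt-Co3 passed as a rise without Clofilium tosylate replicate 2 or DMSO replicate 1.

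AEG 3482 lowered 8 of the 13 mRNAs and raised 0, against 26.8% lower and 41.3% higher over all genes. The rises at an unadjusted p under 0.05 also numbered 0. The split over all genes was 5634 higher and 3653 lower as deposited, with 4487 genes higher and 4604 lower under median-ratio scaling. All 3 cytochrome c oxidase genes were among the falls. mt-Co3 stood at 5729, 5316 and 5602 TPM against 7249 to 8395 TPM with a median of 7693 in DMSO (-0.48 ± 0.07 SE, limma adjusted p = 3.66e-06), mt-Co1 at 8174, 7989.8 and 8435 TPM (-0.30 ± 0.06 SE, limma adjusted p = 9.97e-05) and mt-Co2 at 3968, 3705 and 3651 TPM (-0.33 ± 0.11 SE, limma adjusted p = 0.0112). Every AEG 3482 library of these genes lay below every DMSO library. mt-Cytb stood at 3226, 3058 and 3262 TPM against 3473 to 4273 TPM with a median of 3941 (-0.30 ± 0.06 SE, limma adjusted p = 0.000168), without overlap. The other falls were those of mt-Atp8 (-0.32, limma adjusted p = 0.0417), mt-Nd4 (-0.21), mt-Nd6 (-0.21) and mt-Nd1 (-0.20). Of these, mt-Nd1 and mt-Nd4 turned to 0.030 and 0.085 under quantile normalization, neither past the threshold. mt-Atp6 was at 0.15 ± 0.10 SE and mt-Nd3 at 0.09 ± 0.21 SE as deposited, and with the copies added they turned to -0.54 and -0.44, both past the threshold. The median of all genes stood at 0.10 here and at -0.01 after median-ratio scaling, and that of the 13 at -0.21 as deposited. Without AEG 3482 replicate 2, DMSO replicate 3 or DMSO replicate 4 the count of falls was 5. The calls lost with 1 library left out were mt-Atp8 without AEG 3482 replicate 1, 2 or 3 or DMSO replicate 1, 3, 4 or 5, mt-Nd4 without AEG 3482 replicate 2 or DMSO replicate 3 or 4, and mt-Nd6 without AEG 3482 replicate 2 or DMSO replicate 3 or 4, and mt-Nd4l and mt-Nd5 were gained without DMSO replicate 6. Under quantile normalization 2 falls and 2 rises passed.

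Cardamonin lowered 2 genes and raised 0, although 33% of all genes fell and 37.3% rose. mt-Co1 stood at 8773, 9156 and 8776 TPM against 9344 to 11019.5 TPM with a median of 9969 in DMSO (-0.18 ± 0.06 SE, limma adjusted p = 0.00952), and mt-Co3 at 7143, 6975 and 6514 TPM against 7249 to 8395 TPM with a median of 7693 (-0.17 ± 0.07 SE, limma adjusted p = 0.0469). Every Cardamonin library of both genes lay below every DMSO library. At an unadjusted p under 0.05 the rises also numbered 0. The other 11 changes ran from -0.13 for mt-Nd6 to -0.02 for mt-Atp6. With the copies added 5 genes fell, with mt-Atp6 at -0.41, mt-Co2 at -0.31 and mt-Nd3 at -0.26. The mt-Co3 call was lost without any 1 Cardamonin library or without DMSO replicate 1, 2, 3 or 6, and mt-Nd6 passed as a fall without DMSO replicate 6. With no filter on low values 0 genes passed. Compared directly, Cardamonin was higher than AEG 3482 for mt-Co3 (0.31 ± 0.09 SE, limma adjusted p = 0.00366) and mt-Cytb (0.20 ± 0.07 SE, limma adjusted p = 0.0208), where 22.6% of all genes were higher and 32.7% lower. The split over all genes was 3090 higher and 4457 lower as deposited, with 3856 genes higher and 3676 lower under quantile normalization. The count was 1 without Cardamonin replicate 2 or AEG 3482 replicate 2.

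Podofilox, the tubulin binder, lowered 1 gene and raised 0, against 20% and 26.2% of all genes. mt-Co1 stood at 8662, 8687 and 9138 TPM against 9344 to 11019.5 TPM with a median of 9969 in DMSO (-0.19 ± 0.06 SE, limma adjusted p = 0.0102), and all 3 libraries lay below DMSO. At an unadjusted p under 0.05 it raised 0 and lowered 2. The other 12 ran from -0.22 for mt-Atp6 to 0.20 for mt-Atp8, and none passed. With the copies added 5 genes fell: mt-Nd3 (-0.24), mt-Co2 (-0.21), mt-Atp6 (-0.21), mt-Co3 (-0.21) and mt-Co1 (-0.19). Without DMSO replicate 6 the count was 4, adding mt-Nd4l, mt-Nd5 and mt-Nd6, and with no filter on low values it was 0.

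Ratios within a library do not depend on its scaling, and 5 were compared: mt-Nd6 with its neighbours mt-Nd5 and mt-Cytb, mt-Nd1 with mt-Cytb near the opposite ends of the plus-strand transcript, and the partners of each shared mRNA. All 5 log2 ratios differed among the 9 groups by a permutation test of the F statistic with 100000 resamples, with p adjusted over the 5 pairs. The adjusted p was 1.67e-05 for the first 3 pairs, the smallest the resamples could give after adjustment. Each compound was then set against DMSO by an exact two-sided permutation test, 40 tests in all. The smallest p that 3 against 6 libraries allow is 0.0119. After adjustment 12 of the 40 passed, each at an adjusted p of 0.0397 and with no overlap of the groups, and 13 were under 0.05 before adjustment.

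The mt-Nd6 to mt-Nd5 ratio moved in 2 compounds and in opposite directions. In DMSO its log2 value ran from 0.30 to 0.50. In BerberineA it was 0.96, 0.85 and 0.83 (0.49 from the DMSO mean), and in Antimycin A 0.14, 0.17 and 0.12 (-0.25 from the DMSO mean). The other 6 compounds lay within -0.06 to -0.02 of the DMSO mean. The mt-Nd6 to mt-Cytb ratio, -0.87 to -0.74 in DMSO, was higher in 5 compounds: Antimycin A at -0.37, -0.38 and -0.35, BerberineA at -0.47, -0.58 and -0.61, Diphenyleneiodonium Cl at -0.59, -0.58 and -0.65, Dihydrorotenone at -0.70, -0.54 and -0.61 and Clofilium tosylate at -0.64, -0.68 and -0.60. AEG 3482 was at 0.09 from the DMSO mean, p = 0.0357 and adjusted p = 0.110 by the exact test. So mt-Nd6 rose relative to mt-Cytb in Antimycin A while it fell relative to mt-Nd5.

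The mt-Nd1 to mt-Cytb ratio set Antimycin A apart. Its 3 libraries were at 0.77, 0.77 and 0.75 on the log2 scale against -0.27 to -0.07 in DMSO, a difference of 0.99. Diphenyleneiodonium Cl was at -0.06, 0.08 and -0.04 (0.22 from the DMSO mean) and Clofilium tosylate at -0.05, -0.04 and -0.05 (0.18 from the DMSO mean). Dihydrorotenone moved the other way, to -0.31, -0.38 and -0.42 (-0.14 from the DMSO mean). Within the mt-Nd4l/mt-Nd4 mRNA, the ratio of the 2 partners was 0.11 to 0.50 in DMSO and negative in BerberineA, at -0.10, -0.14 and -0.12 (-0.43 from the DMSO mean). No other compound passed for this pair. Both partners lie on 1 mRNA, so the shift cannot be read as a change of 1 mRNA against another. Of the 31-base words of mt-Nd4l, 98.9% occur in nuclear copies. Its copy Gm10222 was listed at 0 TPM in every library, and the mt-Nd4 copy Gm28439 at 3.28e-05 TPM at most. Adding these copies therefore leaves the ratio as printed. The source of the shift was not tested. Within the mt-Atp8/mt-Atp6 mRNA 0 of 8 compounds passed the exact test at an unadjusted p under 0.05, and the F test (adjusted p = 0.00340) was lost with the nuclear copies added (adjusted p = 0.152).

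**Figure D4:**
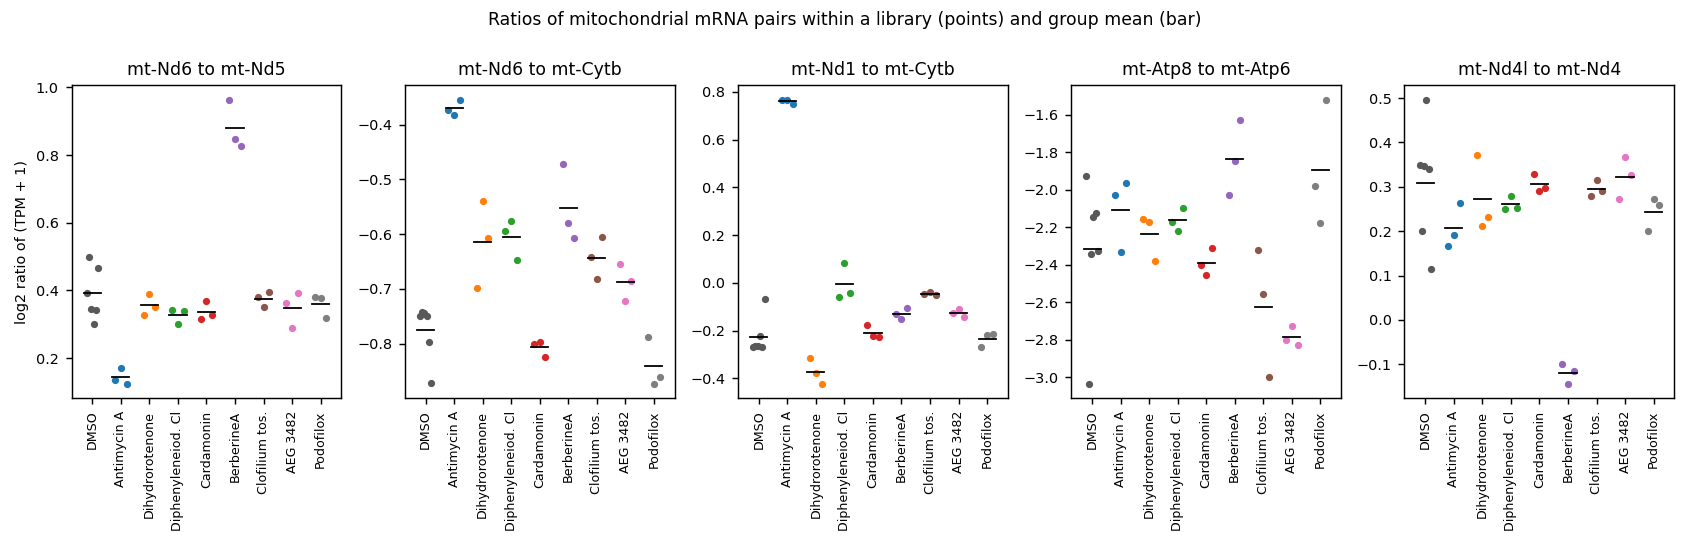
Log2 ratio of (TPM + 1) between 2 mitochondrial mRNAs of the same library (vertical axis) by group (horizontal axis), 1 panel per pair; points are libraries and bars are group means. Antimycin A libraries stand apart for mt-Nd1 to mt-Cytb, at 0.77, 0.77 and 0.75, and BerberineA libraries for mt-Nd6 to mt-Nd5, at 0.96, 0.85 and 0.83.

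The nuclear genes that make mitochondrial RNA were followed beside the 13 mRNAs, in lists of 20 genes of mitochondrial DNA transcription and replication, 31 of RNA processing and stability and 10 regulators of biogenesis, of which 8 were tested. Polrmt, the mitochondrial RNA polymerase, stood at 16.1 ± 1.86 TPM in DMSO (SD, n = 6) and at 14.9 ± 0.334 TPM in Antimycin A (n = 3), where 9 mitochondrial mRNAs fell. It passed the test in 1 of 8 compounds, AEG 3482, at 0.45 ± 0.10 SE, limma adjusted p = 0.000412. Tfam, which packages mitochondrial DNA and starts its transcription, stood at 31.3 ± 2.17 TPM in DMSO and passed in 1 of 8, Cardamonin, at 0.20 ± 0.08 SE, limma adjusted p = 0.0320. Polg, the DNA polymerase, stood at 34.4 ± 3.47 TPM in DMSO, and its changes, from -0.10 to 0.16, passed for none of the 8 compounds. Ppargc1a, a coactivator of biogenesis, was at 0.367 ± 0.0489 TPM in DMSO and was not tested.

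Lrpprc and Slirp form a complex that binds and stabilises mitochondrial mRNAs. Lrpprc rose from 19.2 ± 1.89 TPM in DMSO to 38.2 ± 2.004 TPM in Cardamonin (0.96 ± 0.06 SE, limma adjusted p = 4.74e-13). It also rose in AEG 3482 (0.52) and Podofilox (0.23). Slirp, at 102 ± 5.44 TPM in DMSO, rose in Cardamonin (0.44) and AEG 3482 (0.43) and fell in Podofilox (-0.20). In Cardamonin, AEG 3482 and Podofilox 2, 8 and 1 of the 13 mitochondrial mRNAs fell as deposited, beside 33%, 26.8% and 20% of all genes. In the same 3 compounds 0 of the 13 rose, beside 37.3%, 41.3% and 26.2% of all genes. In Antimycin A Lrpprc was at 0.15 and Slirp at 0.12, neither past the threshold. In BerberineA the values were 0.05 and -0.01, also not past it.

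The 3 lists held 59 tested genes. Antimycin A raised 8 and lowered 5 of them, beside 21.8% higher and 15.5% lower of all genes, and the called genes included Top1mt (0.23), Fastkd1 (0.28), Nrf1 (0.18), Mterf4 (-0.46) and Gabpa (-0.43). Top1mt is the mitochondrial topoisomerase, Fastkd1 binds mitochondrial RNA, Mterf4 acts in ribosome assembly, and Nrf1 and Gabpa are transcription factors of respiratory genes. In Dihydrorotenone 3 passed, all of them falls, beside 4.95% higher and 9.43% lower of all genes, with Rexo2, an exonuclease of short RNAs, at -0.17 and Pprc1, a coactivator, at -0.33. Diphenyleneiodonium Cl raised 3 and lowered 8, beside 14% higher and 11.7% lower of all genes, with Tfb2m (-0.34), Fastkd2 (-0.34), Pnpt1 (0.16), Perm1 (0.26) and Myc (-0.46). BerberineA raised 4 and lowered 3, beside 12.6% higher and 9.16% lower of all genes, with Top3a (0.18), Trub2 (0.23), Rexo2 (-0.25), Yy1 (0.23) and Myc (-0.37). Clofilium tosylate raised 3 and lowered 2, beside 10.9% higher and 12.5% lower of all genes, with Top1mt (0.21), Trub2 (0.28), Rexo2 (-0.16), Perm1 (0.22) and Gabpa (-0.28). Tfb2m melts the promoter for the polymerase, Fastkd2 binds RNA, Pnpt1 degrades it, Trub2 makes pseudouridine and Top3a is a topoisomerase. Leaving out 1 library took the number changed in Antimycin A from 13 to 7 (without replicate 1), in Diphenyleneiodonium Cl from 11 to 6 or 7 (without replicate 2 or 3), in BerberineA from 7 to 2 or 3 (without replicate 2 or 3) and in Clofilium tosylate from 5 to 3 (without replicate 2 or 3). In Dihydrorotenone it was 5 in place of 3 without DMSO replicate 5.

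Cardamonin raised 9 of 20, 17 of 31 and 5 of 8 and lowered 3, 4 and 0, beside 37.3% higher and 33% lower of all genes. Twnk, the DNA helicase, was at 0.77, Nsun3 and Nsun4, RNA methyltransferases, at 0.996 and -0.51, Mterf2 at -0.85 and Gabpb1 at 0.76. AEG 3482 raised 6, 14 and 5 and lowered 6, 4 and 1, beside 41.3% higher and 26.8% lower of all genes. Esrra, a nuclear receptor that drives oxidative genes, was at 1.01 and Gabpa at -1.02. Lig3, the mitochondrial DNA ligase, was at 0.70, Mterf3 at -0.76, the rRNA methyltransferase Mrm1 at 0.90 and Nsun4 at -0.59. Podofilox raised 6, 9 and 4 and lowered 1, 5 and 0, beside 26.2% higher and 20% lower, with Lig3 (0.39), Trub2 (0.59), Mterf4 (-0.75), Hsd17b10 (-0.42) and Myc (0.96). Hsd17b10 is a subunit of the enzyme that cuts the 5′ ends of mitochondrial transfer RNAs.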

How the data were processed

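RNA depleted of ribosomal RNA was sequenced as 30 libraries in 9 groups. The authors deposited TPM per gene, estimated with kallisto 0.43.1 per the submitters' processing notes (which also name FastQC and mm10) and summed to genes per the series' design text. The transcript index, strandedness and read depth are not given in the sources used here, so no counting error can be attached to a TPM value. The authors' own differential tests were not used here. Genes listed in the table summed to 927024 TPM or more per library. Gene names and positions came from GENCODE M21 on GRCm38, matched by Ensembl identifier.

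The filter on low values kept the 13644 of 29861 genes that reached 1 TPM in 3 or more libraries, and these were tested on log2(TPM + 1), so fold changes of low genes are understated. limma 3.58.1 in R 4.3.3 was fitted to all 30 libraries with 1 mean per group and an intensity trend, and p-values were adjusted over all tested genes in each comparison by the Benjamini-Hochberg method, with a threshold of 0.05. Ratios used exact or 100000-resample two-sided permutation tests (SciPy 1.17.1). The fit was tested on simulated data. Adding copies by length means summing each nuclear copy's TPM, times its length over that of the mitochondrial gene, into its gene before the fit.

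The alternatives were other pseudocounts, filters, scalings, trends, smaller fits, a replicate block, copies added and each library left out. All 13 members are reported. Of the nuclear lists, Polrmt, Tfam, Polg, Ppargc1a, Lrpprc and Slirp and the gene with the largest rise and fall per list and compound among those past the threshold are named. The members and lists were chosen with earlier results of these data known.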

Additional observations from a re-analysis of the deposited data

Results flagged for a closer look

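Among 26 values compared over the 6 DMSO libraries, 2 had a library far from the other 5, where chance gives about 1 in 20. DMSO replicate 1 had 6030.3 TPM of mt-Co2 while the other 5 lay between 4026 and 4763 TPM. The log2 ratio of mt-Nd1 to mt-Cytb was -0.067 in DMSO replicate 6 and between -0.27 and -0.22 in the others. The same library was the lowest of the DMSO group for mt-Nd2, mt-Co1, mt-Atp6, mt-Nd4l, mt-Nd4, mt-Nd5, mt-Nd6 and mt-Cytb. No cause was tested.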

How the results depend on the processing

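Depth is unknown, and the fit pools the spread of 9 groups because each compound has 3 libraries. Over the alternatives other than leaving out a library, changes of single mRNAs and ratios kept direction and side of the threshold 2153 times, lost the call 88 times, gained it 58 times and turned 18 times. With 1 library left out they kept it 1474 times, lost it 190 times and gained it 22 times. The cause was not tested unless stated.

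Under quantile normalization, 1 rise passed in Antimycin A, 5 in Dihydrorotenone, 1 in Cardamonin, 2 in AEG 3482 and 1 in Podofilox, and the falls numbered 1 in Diphenyleneiodonium Cl, 1 in BerberineA and 2 in AEG 3482. Directions turned for mt-Cytb in Cardamonin (0.24) and Podofilox (0.16), mt-Co1 in BerberineA (0.17), mt-Nd1 (0.030) and mt-Nd4 (0.085) in AEG 3482, mt-Nd1 between Antimycin A and Dihydrorotenone (0.054) and mt-Co1 between Cardamonin and AEG 3482 (-0.23). This setting gives every library the same distribution, in which these mRNAs are among the highest values. With copies added, plainly or by length, 5 falls passed in Cardamonin and in Podofilox and 2 genes differed between Dihydrorotenone and Diphenyleneiodonium Cl. mt-Atp6 turned in BerberineA (0.28 both ways), Clofilium tosylate (-0.054 and -0.053) and AEG 3482 (-0.55 and -0.54). mt-Nd3 turned in AEG 3482 (-0.45 and -0.44) and mt-Co2 in Podofilox (-0.21), and mt-Co1 turned in BerberineA with plain addition (0.18). The mt-Atp8 to mt-Atp6 test across groups then gave adjusted p of 0.150 and 0.152.

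With no filter, rises numbered 5 in Dihydrorotenone and 1 in Diphenyleneiodonium Cl, falls 0 in Cardamonin and Podofilox, and differences 0 between Dihydrorotenone and Diphenyleneiodonium Cl and 1 between Cardamonin and AEG 3482. Median-ratio scaling gave 1 rise in Diphenyleneiodonium Cl, 5 rises and 1 fall in BerberineA and 4 differences between Cardamonin and AEG 3482. In BerberineA a mean of at least 5 TPM, and rescaling without the 20 most abundant genes, each gave 1 fall. Without the trend Cardamonin had 1 fall, and without it, with a pseudocount of 0.1 or rescaled to nuclear genes, Dihydrorotenone and Diphenyleneiodonium Cl differed in 0. With the groups compared fitted alone, rises numbered 1 in Antimycin A, 4 in Dihydrorotenone and 0 in Diphenyleneiodonium Cl, falls 5 in AEG 3482 and 2 in Podofilox, and Cardamonin and AEG 3482 differed in 4.

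Replicate numbers did not pair the samples: 2 of 24 same-number correlations passed 0.1 and 7 of 24 libraries correlated best with their own number. With the replicate number as a block, rises numbered 1 in Antimycin A and 6 in Dihydrorotenone, falls 1 in BerberineA and 2 in Podofilox, and nuclear-list genes changed 5 in Dihydrorotenone, 7 in Diphenyleneiodonium Cl and 3 in Clofilium tosylate. Replicate numbers above 3 occur only in DMSO, so those libraries have no partner in this setting. Its lost calls cannot be assigned to pairing alone.

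With 1 library left out at a time, rises and falls ran from 0 to 2 and 9 to 10 in Antimycin A, 3 to 10 and 0 in Dihydrorotenone, 1 to 4 and 0 in Diphenyleneiodonium Cl, and 0 and 1 to 2 in Cardamonin. They ran from 4 to 8 and 0 to 1 in BerberineA, 2 to 4 and 0 to 1 in Clofilium tosylate, 0 and 5 to 10 in AEG 3482, and 0 and 1 to 4 in Podofilox. Differences ran from 9 to 11 between Antimycin A and Dihydrorotenone, 9 to 11 between Antimycin A and Diphenyleneiodonium Cl, 0 to 1 between Dihydrorotenone and Diphenyleneiodonium Cl, 8 to 10 between Clofilium tosylate and Antimycin A and 1 to 2 between Cardamonin and AEG 3482, and stayed at 13 among the 8 compounds. Nuclear-list genes ran from 7 to 13 in Antimycin A, 2 to 5 in Dihydrorotenone, 6 to 11 in Diphenyleneiodonium Cl, 34 to 38 in Cardamonin, 2 to 8 in BerberineA, 3 to 7 in Clofilium tosylate, 33 to 37 in AEG 3482 and 19 to 27 in Podofilox. Adjusted p across groups ran from 1.67e-05 to 3.33e-05 for mt-Nd6 to mt-Nd5, 1.67e-05 to 2.50e-05 for mt-Nd6 to mt-Cytb and for mt-Nd1 to mt-Cytb, 0.000175 to 0.00967 for mt-Atp8 to mt-Atp6 and 0.000475 to 0.00301 for mt-Nd4l to mt-Nd4. The exact tests of ratios lose the arrangements they need when a library is left out.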

Other observations

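A nuclear gene with mitochondrial sequence, Gm20594, was chosen after its values were seen. It is annotated as protein coding on the plus strand of chromosome 6 (chr6:79817916-79818364, GRCm38), and 42 of its 419 31-base words, 10.0%, occur in mt-Rnr2, the large mitochondrial ribosomal RNA, which has no row used here. The words fall in 2 runs of identical bases, given from mt-Rnr2 on the plus strand, 5′ to 3′, with all shared bases in capitals.
mt-Rnr2 at chrM:1963-1999: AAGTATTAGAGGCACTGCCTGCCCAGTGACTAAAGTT
mt-Rnr2 at chrM:2102-2166: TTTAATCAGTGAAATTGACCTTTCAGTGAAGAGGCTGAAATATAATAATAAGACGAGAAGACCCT
Gm20594 stood at 2033, 1937 and 1828 TPM in BerberineA against 182 to 259 TPM with a median of 227 in DMSO (log2 change 3.12 ± 0.11 SE, limma adjusted p = 9.51e-16). In Antimycin A it was 854, 967 and 838 TPM (1.999 ± 0.11 SE, limma adjusted p = 8.30e-13). Both groups lay far above DMSO. Of the 13 mitochondrial mRNAs Antimycin A lowered 9 and raised 2, beside 15.5% and 21.8% of all genes. BerberineA lowered 0 and raised 8, beside 9.16% and 12.6% of all genes. Gm20594 rose by 0.39 in Clofilium tosylate and fell in AEG 3482 (-0.59) and Cardamonin (-0.80). Libraries were depleted of ribosomal RNA, and the part of that step in these values was not tested.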
